A study of Mus musculus with 2 samples.

Results

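Satellite cells, the resident stem cells of skeletal muscle, were described in single-cell RNA counts of 1 library labelled KO and 1 library labelled WT, both freshly isolated from male mice and from 1 leg muscle, the tibialis anterior (TA). A barcode was taken as a satellite cell when its raw unique molecular identifiers (UMIs, 1 per captured RNA molecule) for Pax7, Calcr, Chodl and Myf5 summed to at least 3 with at least 2 of these genes detected, when Pecam1 and Ptprc were both at 0, and when Dcn had at most 4 UMIs. Only barcodes with at least 500 detected genes, at least 1000 UMIs and at most 10% mitochondrial UMIs were eligible. The rule took 692 satellite cells in the KO library and 548 in the WT library, 1240 in all, of 27383 eligible and 30891 deposited barcodes. Each library was prepared from 10 TA muscles pooled from 5 mice of its strain, digested for 1 h at 37 °C with collagenase II and dispase II and sorted for viable cells, so the values of 1 library stand for 1 pool of animals and there is no replicate of either genotype. The series title concerns IGF-I made by mesenchymal progenitors, and the labels give the genotypes as KO and WT without naming the deleted gene, the cells in which it is deleted or the age of the mice. The labels call the cells FAPs (fibro-adipogenic progenitors) from ND muscle, an abbreviation they do not spell out, but the suspension held satellite, endothelial, mural and other cells as well.

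Satellite cells lie between the muscle fibre and its basal lamina and are marked by the transcription factor Pax7. In uninjured muscle they are quiescent, a state held by Notch signalling through Rbpj and its Hes and Hey targets and by the calcitonin receptor Calcr. When muscle is injured or taken apart they activate: they grow, build ribosomes, make the myogenic factor Myod1, and then divide or differentiate through Myog. Enzymatic digestion of muscle is known to start part of this response, immediate early genes such as Fos first, so freshly isolated cells need not show the state they had in the tissue.

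The libraries differed in depth. The KO library held 101570863 UMIs in 19531 barcodes and the WT library 38014703 UMIs in 11360 barcodes, and satellite cells had a median of 7803 UMIs and 2602.5 genes in the KO library and 3617 UMIs and 1632 genes in the WT library. Cell Ranger, which made the counts, is given in the headers as version 9.0.0 (KO) and 8.0.0 (WT). The 2 libraries shared 61 barcode sequences, of which 3 were satellite cells in the KO library and 2 in the WT library, and none was one in both. Levels below are in CPM, the UMIs of a gene per 1000000 UMIs summed over the satellite cells of a library, which held 5542189 UMIs in the KO library and 2110137 in the WT library. Differences are log2 ratios of KO over WT after adding 1 CPM to both. Intervals are exact 95% intervals that cover counting error only, and with 1 library per genotype no test between genotypes was possible and none was run.

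Satellite cells made up 3.92% of the eligible barcodes of the KO library (95% Clopper-Pearson interval 3.64 to 4.22, 692 of 17651) and 5.63% of those of the WT library (5.18 to 6.11, 548 of 9732). The rule counts raw UMIs, so a barcode read more deeply meets it more easily. When every barcode was first thinned to 2000 UMIs the shares were 2.59% in the KO library (356 of 13751) and 5.48% in the WT library (397 of 7240), an alternative added after the data were seen. A further 150 barcodes of the KO library and 43 of the WT library met the marker rule but held Pecam1 or Ptprc UMIs, and 10 in each held too much Dcn.

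The 4 marker genes chose the cells, so their levels are given as a description. Chodl, a membrane protein of the C-type lectin family, had 1242 CPM in KO satellite cells and 1464 CPM in WT satellite cells and supplied 64.6% and 56.3% of the marker UMIs. Pax7 had 260.4 CPM in KO cells and 423 CPM in WT cells, and Myf5, a myogenic factor already made in quiescent cells, had 254 CPM in KO cells and 320.4 CPM in WT cells. Calcr, which helps to hold quiescence, had 167 CPM in KO cells and 395 CPM in WT cells. All 4 markers were lower in KO cells as chosen, yet this direction did not hold for Myf5 when the rule was applied at 2000 UMIs: its log2 ratio was then 0.23, and those of Pax7, Calcr and Chodl were -0.23, -0.42 and -0.04. Of the 4 markers, 2 were detected in 270 KO cells and 231 WT cells, 3 in 304 and 226, and all 4 in 118 and 91. Just inside the threshold, 26 KO cells and 35 WT cells had exactly 3 marker UMIs, with Musk at 410 CPM (KO) and 601 CPM (WT). Just outside it, 82 KO barcodes and 75 WT barcodes had 2 marker UMIs, with Musk at 498 CPM (KO) and 592 CPM (WT). Other genes differed more across the threshold, mainly in the KO library. From inside to outside, Des went from 709 to 291 CPM (KO) and from 679 to 550 CPM (WT). Sdc4 went from 2401 to 1273 CPM (KO) and from 2235 to 2052 CPM (WT). Dcn rose from 42.7 to 258 CPM (KO) and from 59.1 to 97.7 CPM (WT). Asb5 rose too, from 752 to 1169 CPM (KO) and from 1378 to 2058 CPM (WT).

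Several satellite cell genes that the rule did not use were high in these cells too, but not all. Des, the muscle intermediate filament desmin, had 669.8 CPM in KO satellite cells and 698 CPM in WT satellite cells, 3.91-fold and 4.14-fold above the other barcodes of the same library. Musk, a receptor kinase of the neuromuscular junction, was 18.1-fold above the other barcodes in KO and 15.8-fold in WT. Asb5, a muscle-enriched ankyrin repeat protein, was 26.6-fold above them in KO and 22.6-fold in WT, and Vcam1, an adhesion molecule used to sort satellite cells, 11.1-fold in KO and 7.31-fold in WT. Cav1, Itgb1 and Sdc3, also listed as identity genes of satellite cells, were lower in these cells than in the other barcodes of both libraries. Of 7688 genes compared in the KO library, 797 were at least 2-fold above the other barcodes (10.4%), and in the WT library 671 of 7801 (8.6%). The cells were chosen against those other barcodes, so nothing is read from these counts.

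**Figure D1:**
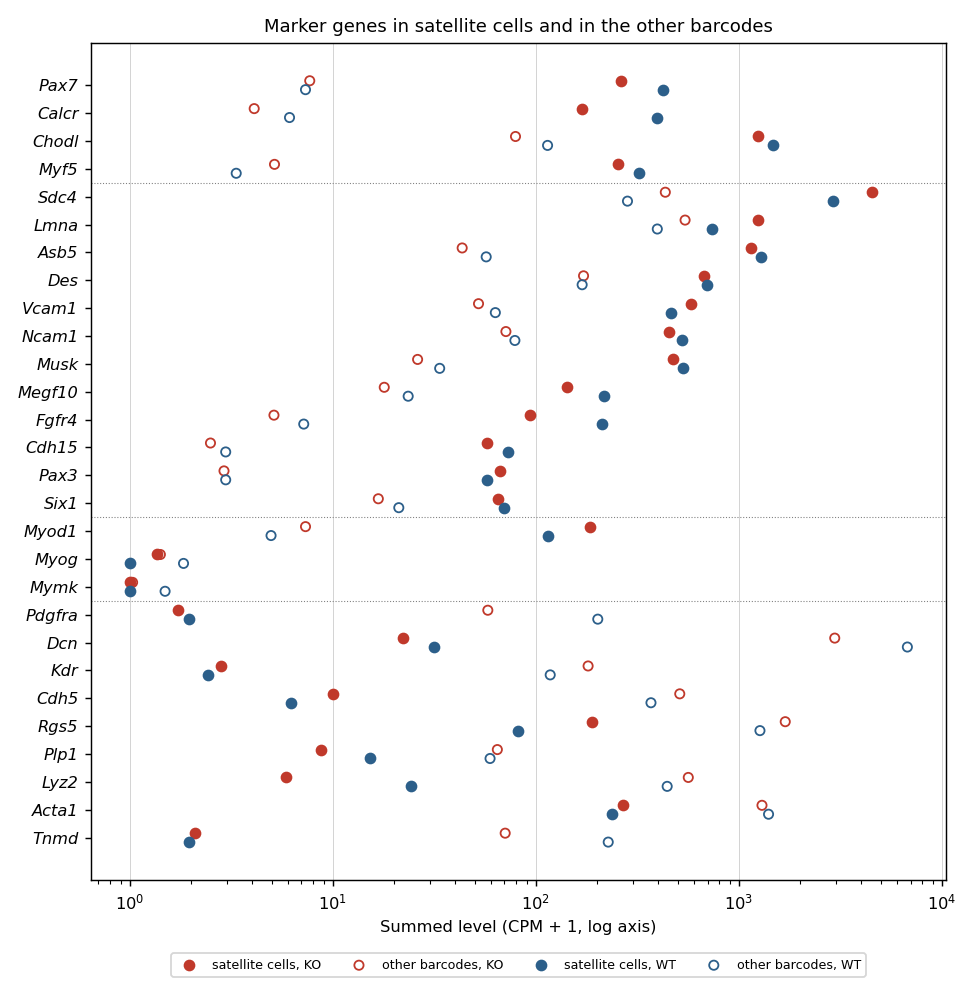
Summed level of marker genes (CPM + 1, log axis) in satellite cells (filled) and in the other eligible barcodes (open) of the KO library (red, upper) and the WT library (blue, lower). From top to bottom the blocks are the 4 genes of the rule, other satellite cell genes, myogenic factors of activation and differentiation, and markers of other cell types. Pax7 and Musk stand far above the other barcodes in both libraries, Myog and Mymk are at or near 0, and Pdgfra and Kdr are near 0 in satellite cells.

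Several secreted or receptor genes and a sulfotransferase gene were among the 15 with the largest excess over the other barcodes in both libraries. Gal, the neuropeptide galanin, had 803 CPM in KO satellite cells and 1115 CPM in WT satellite cells, against 12.9 CPM (KO) and 19 CPM (WT) in the other barcodes. Erfe, the hormone erythroferrone, had 589.7 CPM in KO cells and 360.2 CPM in WT cells (log2 0.71, 0.60 to 0.83). Tshr, the thyrotropin receptor, had 84.1 CPM in KO cells and 196 CPM in WT cells (log2 -1.21, -1.42 to -1.03), and Edn3, the peptide endothelin 3, had 54.1 CPM (KO) and 143 CPM (WT) (log2 -1.39, -1.64 to -1.17). Hs6st3, a heparan sulfate sulfotransferase, had 708 CPM in KO cells and 1099.9 CPM in WT cells, and Col19a1, a basement membrane zone collagen, 217 CPM (KO) and 336 CPM (WT). Chrdl2, a BMP antagonist of the chordin family, was also in the group and had 129.6 CPM in KO cells and 92.4 CPM in WT cells (log2 0.48). Of these genes, Erfe and Chrdl2 were higher in KO cells, and Gal, Tshr, Edn3, Hs6st3 and Col19a1 were lower there.

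Markers of other cells were low but not absent. The FAP marker Pdgfra had 0.722 CPM in KO satellite cells and 0.948 CPM in WT satellite cells, and of the 10 FAP markers none was at 0 in either library, with summed levels of 691 CPM (KO) and 905 CPM (WT) that came mostly from Gsn, Dpt and Col3a1. The 10 endothelial markers summed to 152 CPM in KO cells and 91 CPM in WT cells, with Kdr at 1.8 CPM (KO) and 1.42 CPM (WT). Of these 10, 1 was at 0 in KO cells and 2 in WT cells, Pecam1 by the rule. The 10 mural markers, which include Notch3 and of which none was at 0, summed to 704 CPM in KO cells and 542 CPM in WT cells. Among them Rgs5 had 189 CPM in KO cells and 81 CPM in WT cells, and Tagln 184 CPM (KO) and 66.8 CPM (WT). The 12 myofibre markers summed to 1284 CPM in KO cells and 1255 CPM in WT cells, and 1 cell held 19.1% of them in the KO library and 54.7% in the WT library. The 10 immune markers summed to 16.8 CPM (KO) and 31.3 CPM (WT), with 1 at 0 in KO cells and 5 in WT cells, Ptprc by the rule. The 6 erythroid markers differed most between the libraries among these lists, at 52.1 CPM in KO cells (219 cells with a UMI) and 5.69 CPM in WT cells (11 cells), with 1 at 0 in each. The haemoglobin gene Hbb-bs alone had 28.1 CPM in KO satellite cells and 3.79 CPM in WT satellite cells, beside 567 CPM in the other KO barcodes and 209 CPM in the other WT barcodes. The 10 glial markers, none at 0, summed to 476 CPM in KO cells and 572 CPM in WT cells, of which Ncam1, also an identity gene of satellite cells, gave 450 CPM (KO) and 526 CPM (WT). What part this RNA of other cells has in the differences below was not tested, except where cells rich in myofibre RNA were left out.

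Genes were compared between genotypes where 1 library reached 20 CPM and both together 100 UMIs. Of these 6384 genes, 226 were at least 2-fold higher in KO satellite cells (3.54%) and 176 at least 2-fold lower (2.76%). At 1.5-fold these were 731 genes (11.5%) and 675 genes (10.6%). The median log2 ratio over all 6384 genes was 0.04, and the quartiles were -0.27 and 0.33. Fewer genes pass the floors in shallower data: with each cell thinned to 2000 UMIs, 105 of 3907 genes were 2-fold higher and 71 lower.

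Quiescence genes were lower or near level in KO satellite cells. All 26 genes of this list were compared. In KO cells 7 were lower by 1.5-fold or more and 0 were higher by as much, beside 10.6% and 11.5% of all genes, and the list's median log2 ratio was -0.20. In the endothelial, FAP and mural cells of the same libraries, chosen by their own marker rules, the medians of this list were 0.00, -0.11 and 0.03. The 7 genes were Hes1, Notch3, Tenm4, Tgfbr3, Gas1, Notch2 and Ptprz1.

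Hes1, a repressor switched on by Notch, had 96.9 CPM in KO satellite cells (88.9 to 105) and 202 CPM in WT satellite cells (183 to 222), a log2 ratio of -1.05 (-1.25 to -0.87). The groups' counting intervals did not overlap. The receptors Notch3 and Notch2 were lower in KO cells as well. Notch3 had 112 CPM in KO cells and 200.5 CPM in WT cells (log2 -0.84, -1.03 to -0.66), and Notch2 112 CPM (KO) and 183 CPM (WT) (log2 -0.70, -0.90 to -0.52). Other genes of the same pathway were closer to level: Rbpj, the DNA-binding partner of Notch, had 311 CPM in KO cells and 336 CPM in WT cells, Notch1 62.2 CPM (KO) and 68.2 CPM (WT), and Heyl, a further target, 107 CPM (KO) and 146 CPM (WT) (log2 -0.45, -0.65 to -0.25).

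The other members of the 7 act at the cell surface. Tenm4, a teneurin adhesion protein, had 430 CPM in KO cells and 747 CPM in WT cells (log2 -0.80, -0.89 to -0.70). Tgfbr3, the TGF-beta co-receptor betaglycan, had 506 CPM (KO) and 850.2 CPM (WT) (log2 -0.75, -0.83 to -0.66), and Gas1, a membrane-anchored growth arrest protein, 571 CPM (KO) and 949.7 CPM (WT) (log2 -0.73, -0.81 to -0.65). Tenm4 and Gas1 were also lower in KO FAPs, with log2 ratios of -1.04 for Tenm4, at no more than 9.68 CPM there, and -1.17 for Gas1. Among list members under 1.5-fold, Foxo1 had 141 CPM in KO cells and 154 CPM in WT cells, Rb1 100.3 CPM (KO) and 98.1 CPM (WT), and Cdkn1b 117 CPM (KO) and 148 CPM (WT). When the marker rule was applied at 2000 UMIs, 4 of 22 quiescence genes were at least 1.5-fold lower in KO cells. The share of all genes past 1.5-fold was not computed for this setting, so nothing is read from that count. The list's median was then -0.13, nearer to level than the -0.20 of the main setting. The log2 ratios were -0.81 for Hes1, -0.73 for Tenm4 and -0.37 for Notch3.

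Activation genes ran the other way. Of 24 genes compared, 11 were higher in KO satellite cells by 1.5-fold or more (45.8%) and 1 lower (4.17%), beside 11.5% and 10.6% of all genes. The list's median log2 ratio was 0.55. The same list had medians of 0.19 in endothelial, 1.03 in FAP and 0.31 in mural cells, so the direction was shared by the other cells of the KO library. With the marker rule applied at 2000 UMIs the satellite cell median was 0.38.

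Ncl, the nucleolar protein nucleolin, had 1466 CPM in KO satellite cells (1434 to 1498) and 749 CPM in WT satellite cells (712 to 787), a log2 ratio of 0.97 (0.89 to 1.05). Eif4a1, an RNA helicase of translation initiation, had 1120 CPM in KO cells and 539.8 CPM in WT cells (log2 1.05, 0.96 to 1.15). Odc1, the first enzyme of polyamine synthesis, had 1200.1 CPM (KO) and 721 CPM (WT) (log2 0.73, 0.65 to 0.82). Tnfrsf12a, the TWEAK receptor, and Fosl1, an AP-1 subunit, were higher in KO cells too. Tnfrsf12a had 730 CPM in KO cells and 372 CPM in WT cells (log2 0.97, 0.86 to 1.09), beside a log2 ratio of 2.70 in FAPs. Fosl1 had 199 CPM in KO cells and 52.1 CPM in WT cells (log2 1.91, 1.65 to 2.23), beside 3.35 in FAPs.

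Myod1, the myogenic factor that marks activation, had 184 CPM in KO satellite cells (173 to 195) and 114 CPM in WT satellite cells (100.2 to 129.6), a log2 ratio of 0.68 (0.48 to 0.89). At 2000 UMIs per cell, a Myod1 UMI was found in 18.9% of KO satellite cells (16 to 22, 129 of 684) and in 14.4% of WT satellite cells (11.5 to 17.8, 73 of 507), and the intervals overlap. Cells under 2000 UMIs, 8 in the KO library and 41 in the WT library, were left out. Without thinning the shares were 34.8% and 18.4%. In endothelial cells, which should lack Myod1, the thinned shares were 0.0908% (6 of 6611, median depth before thinning 4733 UMIs) and 0.0481% (1 of 2079, 2717 UMIs). Runx1, which satellite cells make as they activate, had 1524 CPM in KO cells and 1168 CPM in WT cells (log2 0.38, 0.32 to 0.45). The metallothioneins Mt1 and Mt2, which bind zinc and are also in the list, differed in direction. Mt1 had 5519 CPM in KO cells and 6743 CPM in WT cells (log2 -0.29, -0.32 to -0.26), and Mt2 5239 CPM (KO) and 3976.5 CPM (WT) (log2 0.40, 0.36 to 0.43).

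The 1 activation gene that was lower was Ccnd1, cyclin D1, which takes cells from rest into the cell cycle. It had 13.9 CPM in KO satellite cells (10.96 to 17.4) and 66.8 CPM in WT satellite cells (56.2 to 78.8), a log2 ratio of -2.19 (-2.69 to -1.86). Ccnd1 stood near level in endothelial cells (log2 -0.03), FAPs (0.16) and mural cells (-0.21).

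**Figure D2:**
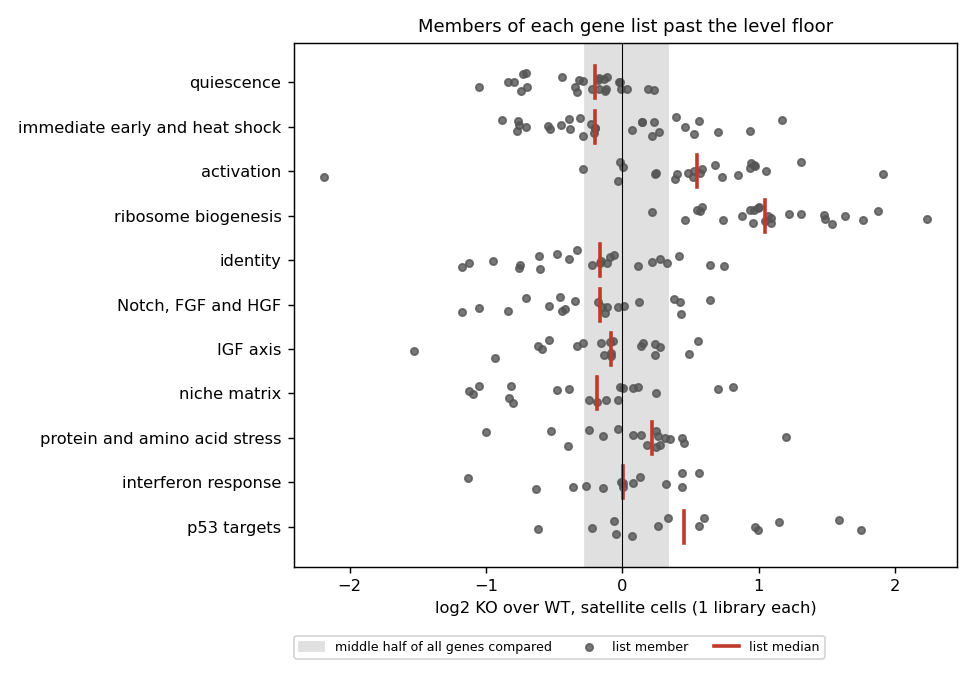
Log2 ratio of KO over WT in satellite cells for each compared member of 11 gene lists (grey points, 1 library per genotype), with the list median (red bar) and the range between the quartiles of all 6384 genes (grey band, -0.27 to 0.33). The median lies at -0.20 for quiescence, 0.55 for activation and 1.05 for ribosome biogenesis.

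Ribosome biogenesis genes were higher in KO satellite cells in most cases. Of 25 compared, 21 were higher by 1.5-fold or more and 0 lower, beside 11.5% and 10.6% of all genes. The list's median log2 ratio was 1.05. Some members, such as Ncl and Nop56, are also in the activation list, so the lists are not separate counts. Heatr1, which is needed for ribosomal RNA transcription and processing, had 84.1 CPM in KO cells (76.6 to 92.1) and 17.1 CPM in WT cells (11.9 to 23.6), a log2 ratio of 2.24 (1.81 to 2.83). Rrs1, an assembly factor of the large subunit, had 96 CPM in KO cells and 27.5 CPM in WT cells (log2 1.77, 1.41 to 2.22). Nop56, a core protein of box C/D small nucleolar particles, had 229.5 CPM (KO) and 91.9 CPM (WT) (log2 1.31, 1.10 to 1.55). The members below 1.5-fold were Npm1, Nop14, Polr1a and Utp4, with log2 ratios of 0.57, 0.21, 0.46 and 0.55. In the other cells of the libraries the list's medians were 1.48 in FAPs, 0.37 in endothelial cells and 0.37 in mural cells.

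Because these genes stood apart together, their promoters were searched for CACGTG, the E-box to which Myc and related factors are known to bind. The motif is a palindrome, so 1 strand holds the matches of both. RefSeq windows of 300 bases (250 before to 50 after the start, build GRCm38.p6) were found for 21 of the 25 compared genes, and 6 of the 21 held the motif (28.6%), beside 12.5% of 5060 compared genes with a window and 7.15% of all 32851 windows. A match is a description of letters and not of binding. The 3 windows shown are those of the 3 of these 6 genes with the largest ratios, 5′ to 3′ on the strand of the gene, with the motif in capitals: Utp20, a factor of small subunit processing (chr10:88826765-88827064, minus strand), Nop2, a ribosomal RNA methyltransferase (chr6:125131633-125131932, plus strand), and Pes1, a factor of large subunit assembly (chr11:3963725-3964024, plus strand).
Utp20: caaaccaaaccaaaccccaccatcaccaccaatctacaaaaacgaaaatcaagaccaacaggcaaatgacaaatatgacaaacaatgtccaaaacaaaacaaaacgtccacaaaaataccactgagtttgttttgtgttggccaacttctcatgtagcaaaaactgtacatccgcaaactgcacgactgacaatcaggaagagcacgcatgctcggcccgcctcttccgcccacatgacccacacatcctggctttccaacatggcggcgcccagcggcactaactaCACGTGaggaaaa
Nop2: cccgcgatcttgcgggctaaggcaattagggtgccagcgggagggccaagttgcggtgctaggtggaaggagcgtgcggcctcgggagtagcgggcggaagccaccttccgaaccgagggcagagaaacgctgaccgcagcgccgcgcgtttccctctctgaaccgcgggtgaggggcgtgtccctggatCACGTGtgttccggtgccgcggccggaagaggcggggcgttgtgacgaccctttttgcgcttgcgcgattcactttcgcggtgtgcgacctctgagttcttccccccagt
Pes1: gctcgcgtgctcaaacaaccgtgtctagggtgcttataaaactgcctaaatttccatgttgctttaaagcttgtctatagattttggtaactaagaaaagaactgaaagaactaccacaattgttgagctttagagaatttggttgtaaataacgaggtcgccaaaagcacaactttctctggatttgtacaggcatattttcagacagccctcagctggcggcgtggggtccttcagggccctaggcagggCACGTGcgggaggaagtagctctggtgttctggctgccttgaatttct
Utp20 had 73.4 CPM in KO satellite cells and 34.6 CPM in WT satellite cells (log2 1.06, 0.72 to 1.47), and its motif starts 37 bases after the gene's start. Nop2 had 39.7 CPM (KO) and 19.4 CPM (WT) (log2 0.99, 0.54 to 1.55), with the motif ahead of the start, and Pes1 50.5 CPM (KO) and 25.6 CPM (WT) (log2 0.95, 0.56 to 1.43), with the motif 2 bases after it. The other genes with the motif, Wdr43, Ltv1 and Utp4, had log2 ratios of 0.88, 0.74 and 0.55. Of the 6 genes with the motif only Utp20 lay above the list's median of 1.05, so they were not the members that differed most. Whether the motif bears on these ratios was not tested. Myc itself had 460.3 CPM in KO cells and 329.8 CPM in WT cells (log2 0.48).

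Immediate early and heat shock genes were mixed in satellite cells. Of 29 compared, 3 were higher in KO cells by 1.5-fold or more (10.3%) and 5 lower (17.2%), beside 11.5% and 10.6% of all genes. The list's median log2 ratio was -0.20, while the same list had medians of 0.32 in endothelial, 0.02 in FAP and 0.23 in mural cells. Fos, an AP-1 subunit, had 2193 CPM in KO satellite cells (2154 to 2232) and 3579 CPM in WT satellite cells (3499 to 3661), a log2 ratio of -0.71 (-0.75 to -0.66), beside 0.30 in endothelial cells. Its partner Jun had 1126 CPM in KO cells and 1921 CPM in WT cells (log2 -0.77, -0.83 to -0.71), beside 0.10 in endothelial cells. In all the other barcodes together, Fos had 3806 CPM (KO) and 3684 CPM (WT). Jun had 2495 CPM (KO) and 2850 CPM (WT) there, so it was lower in KO outside satellite cells too. Dnajb1, a heat shock co-chaperone, had 68 CPM (KO) and 127 CPM (WT) (log2 -0.89, -1.13 to -0.66). Hspa1a and Hspa1b, near-identical heat shock genes between which reads may be split, both had a log2 ratio of -0.76. Ier5, a further immediate early gene, was higher in KO cells, at 283 CPM against 125 CPM in WT cells (log2 1.17, 0.99 to 1.37), and so were Egr3, a zinc finger factor (68.7 CPM in KO cells and 35.5 CPM in WT cells), and Gadd45b, a stress gene (350 CPM in KO cells and 215 CPM in WT cells).

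**Figure D3:**
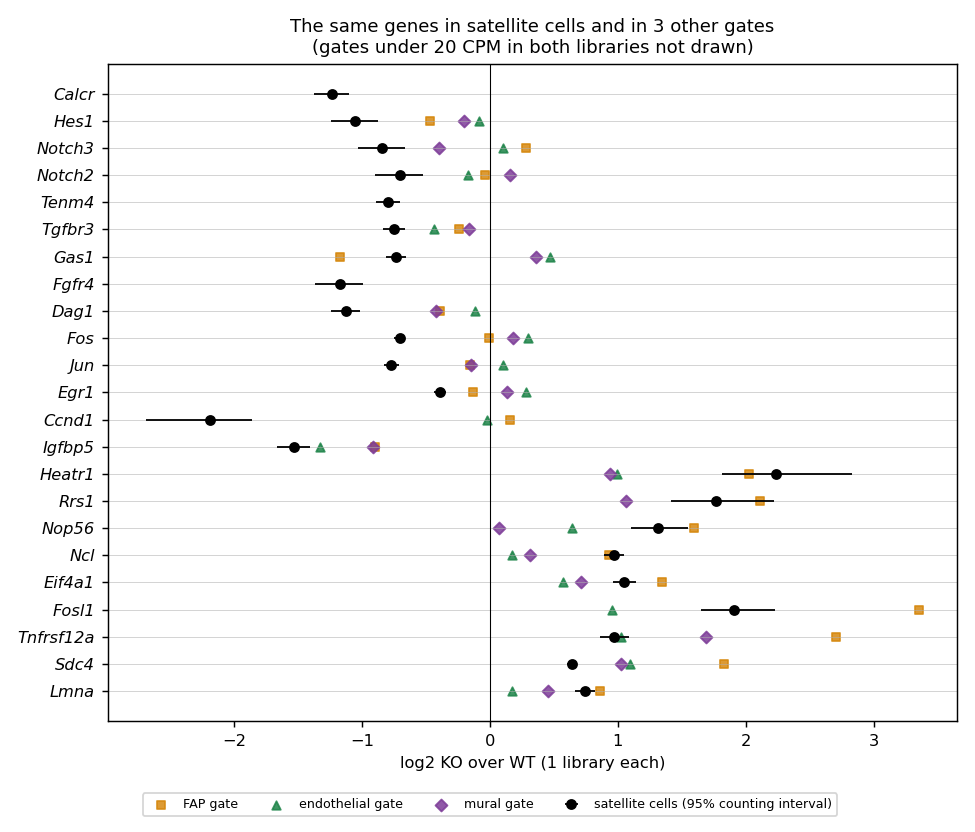
Log2 ratio of KO over WT for named genes in satellite cells (black, with 95% counting interval) and in the FAP, endothelial and mural cells of the same libraries. Fos and Jun lie below 0 in satellite cells and above 0 in endothelial cells, whereas Igfbp5 lies below 0 and Fosl1 and Sdc4 above 0 in each class drawn.

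Among surface receptors, the FGF receptor Fgfr4 and dystroglycan, Dag1, which ties the cell to laminin in the basal lamina, were lower in KO satellite cells. Fgfr4 had 92.7 CPM in KO cells (84.9 to 101) and 210.4 CPM in WT cells (191 to 231), a log2 ratio of -1.17 (-1.37 to -0.995). Dag1 had 245 CPM in KO cells and 536 CPM in WT cells (log2 -1.13, -1.24 to -1.01). Fgfr1 was near level at 724 CPM (KO) and 718 CPM (WT), as was the HGF receptor Met at 134 CPM (KO) and 136 CPM (WT). Sdc4, a heparan sulfate proteoglycan that marks satellite cells, was higher in KO cells, at 4538 CPM against 2907 CPM in WT cells (log2 0.64, 0.60 to 0.68), and it was also higher in KO FAPs (1.83), endothelial cells (1.10) and mural cells (1.02). Of 23 identity genes compared, 2 were at least 1.5-fold higher in KO cells (8.7%), Sdc4 and the nuclear lamina gene Lmna, and 7 at least 1.5-fold lower (30.4%), with a median of -0.17. Of 20 genes of the Notch, FGF and HGF list, 1 was higher (5%) and 4 lower (20%), with a median of -0.16. Of all genes, 11.5% were higher and 10.6% lower. In the Notch, FGF and HGF list Sdc4 was higher and Fgfr4, Hes1, Notch2 and Notch3 lower, and these are counted in other lists as well.

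Of 19 matrix genes compared, 2 were higher in KO cells by 1.5-fold or more (10.5%) and 6 lower (31.6%), beside 11.5% and 10.6% of all genes (list median -0.19). The basement membrane collagen chain Col4a2 had 123 CPM in KO cells and 75.4 CPM in WT cells, and the laminin chain Lamb1 22.4 CPM (KO) and 12.3 CPM (WT). Lower were Dag1, the collagen chains Col15a1, Col6a1 and Col6a2, the secreted matrix protein Sparc and the proteoglycan Bgn. Sparc had 307 CPM in KO cells and 547 CPM in WT cells (log2 -0.83, -0.94 to -0.72), and Col6a1 31.2 CPM (KO) and 65.9 CPM (WT). Col6a1 and Sparc were more than 3-fold higher in the other barcodes of both libraries than in satellite cells, and Col6a1 was lower in KO FAPs as well (log2 -0.53).

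In the IGF axis, which the series title concerns, ligand and receptor were near level in satellite cells. Igf1 had 22.7 CPM in KO satellite cells (18.9 to 27.1) and 24.2 CPM in WT satellite cells (18 to 31.8), a log2 ratio of -0.08 (-0.57 to 0.41), and in FAPs 420.4 CPM in the KO library and 391.8 CPM in the WT library. Whether the counted 3' end of Igf1 lies outside the deleted part, if Igf1 is the deleted gene, cannot be read from the files, so these levels do not check the genotype labels. Igf1r, its receptor, had 488 CPM in KO satellite cells and 413 CPM in WT satellite cells (log2 0.24, 0.13 to 0.35). The gene farthest from level in the list was Igfbp5, an IGF-binding protein, at 172 CPM in KO satellite cells (161 to 183) and 498 CPM in WT satellite cells (468 to 529), a log2 ratio of -1.53 (-1.66 to -1.41). Igfbp5 was lower in KO endothelial (-1.33), FAP (-0.90) and mural cells (-0.91) too, and its level in the other barcodes was 169 CPM in the KO library and 531 CPM in the WT library, close to that of satellite cells in each. Grb10, an adaptor that dampens IGF and insulin signalling, had 289.8 CPM (KO) and 437 CPM (WT) (log2 -0.59, -0.71 to -0.48), and 1 cell held 14.6% of its WT UMIs. Its ratio was under 1.5-fold without the cell of most Grb10 UMIs (-0.40), with per-cell means (-0.38), after thinning (-0.43) and with the marker rule at 2000 UMIs (-0.18). Of 20 genes compared, 0 were higher in KO cells by 1.5-fold or more and 4 lower (20%): Igfbp5, Htra1, Pik3r1 and Grb10. Of all genes, 11.5% were higher and 10.6% lower. Pik3r1, with a log2 ratio of -0.62, was like Grb10 under 1.5-fold in some settings. These were thinning (-0.39), per-cell means (-0.53), 2 marker UMIs of 1 gene or more (-0.51) and the marker rule at 2000 UMIs (-0.50).

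Differentiation and division were barely represented. Myog, the factor of terminal differentiation, had 2 UMIs in the KO satellite cells and 0 in the WT satellite cells, and the fusion genes Mymk and Mymx had 0 in both. Cdkn1a, a cell cycle inhibitor that rises in differentiation and in the p53 response, had 563 CPM in KO cells and 286 CPM in WT cells (log2 0.98, 0.85 to 1.11), close to its log2 ratio of 0.99 in endothelial cells. The structural genes of the list were carried by few cells: Ttn, the sarcomere protein titin, had 96.2 CPM (KO) and 38.4 CPM (WT), with 60.8% of its KO UMIs and 51.9% of its WT UMIs in 1 cell each, and its log2 ratio of 1.30 became -0.13 without cells holding 10 or more myofibre UMIs. Mki67, a marker of dividing cells, had 2 UMIs in the KO library and 55 in the WT library, and 98.2% of the WT UMIs came from 1 cell. The histone gene H3c3 had 0 UMIs in the KO library and 115 in the WT library, all in 1 cell, and H1f2, a linker histone gene, had 66.4% of its WT UMIs in 1 cell. Without the 1 WT cell that had 3 or more Mki67 and Top2a UMIs, the log2 ratios of H3c3, Mki67 and H1f2 were 0.00, -0.12 and -0.66.

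Of 14 p53 targets compared, 6 were higher in KO satellite cells by 1.5-fold or more (42.9%) and 1 lower (7.14%), beside 11.5% and 10.6% of all genes (list median 0.45). Pmaip1, the pro-apoptotic protein Noxa, had 34.3 CPM in KO cells and 9.48 CPM in WT cells (log2 1.75, 1.19 to 2.60), Aen, an apoptosis-linked nuclease, 39.2 CPM (KO) and 12.3 CPM (WT), and Eda2r, a receptor of the TNF receptor family, 68.4 CPM (KO) and 30.3 CPM (WT). Of 18 genes of protein and amino acid stress, 1 was higher, the transcription factor Atf5 (75.4 CPM in KO cells and 32.2 CPM in WT cells), and 1 lower, the disulfide isomerase Pdia4 (22 CPM in KO cells and 45 CPM in WT cells). Each is 5.56% of the list, below the share of all genes. The 14 interferon response genes compared had a median of 0.01, and Xaf1 among them had 10.5 CPM in KO cells and 24.2 CPM in WT cells.

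Among genes at 50 CPM or more in 1 library, leaving out mitochondrial, ribosomal protein, haemoglobin and predicted genes as well as any whose level in the other barcodes was over 5 times that in satellite cells of the library where it was higher, the 12 highest ratios were those of Cish, Col8a1, Heatr1, Ucp2, Gch1, Fosl1, Timp3, Tsr1, Nol8, Plaur, Rad18 and Rrs1. Cish, a feedback inhibitor of cytokine signalling through STAT5, had 56.1 CPM in KO satellite cells and 9.95 CPM in WT satellite cells (log2 2.38, 1.86 to 3.21). Plaur, the urokinase receptor, had 190.2 CPM (KO) and 52.6 CPM (WT) (log2 1.83, 1.57 to 2.15), and Ucp2, a mitochondrial carrier protein, 108 CPM (KO) and 26.1 CPM (WT) (log2 2.01, 1.65 to 2.48). Timp3, an inhibitor of metalloproteases, had 773 CPM in KO satellite cells and 211 CPM in WT satellite cells, beside 2135 CPM (KO) and 1204 CPM (WT) in the other barcodes, so it was higher outside satellite cells in both libraries.

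The 12 lowest ratios were those of H3c3, Hmcn1, Ccnd1, H1f2, C1qtnf3, Reps2, Ccl19-ps2, Cdc42ep5, Mrln, Idh2, Ank3 and Ret. C1qtnf3, a secreted protein of the C1q and TNF family, had 21.1 CPM in KO satellite cells and 98.1 CPM in WT satellite cells (log2 -2.16, -2.56 to -1.88), and was 11.7-fold and 19.4-fold above the other barcodes. Hmcn1, the matrix protein hemicentin, had 28.9 CPM (KO) and 136 CPM (WT) (log2 -2.20, -2.53 to -1.96). Ank3, the membrane scaffold ankyrin G, had 124 CPM (KO) and 376 CPM (WT) (log2 -1.59, -1.75 to -1.45), and was lower in KO FAPs too (-2.25). Ret, the receptor kinase for GDNF family ligands, had 20.2 CPM (KO) and 62.1 CPM (WT), and Mrln, the muscle micropeptide myoregulin, 16.1 CPM (KO) and 53.1 CPM (WT). Ccl19-ps2 is named as a pseudogene, so its reads may be shared with related copies.

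Within each library, cells were then compared with each other at 2000 UMIs per cell. The sum of quiescence genes had a median of 11 UMIs per cell among 684 KO cells and 14 among 507 WT cells, with 10th to 90th percentiles of 5 to 19 and 8 to 23. The activation sum, taken without Mt1 and Mt2, had medians of 20 and 13, ribosome biogenesis 10 and 6, and immediate early genes 38 and 45. Between the 10th and 90th percentiles, the libraries overlapped in each of these sums. Across cells, the activation sum and the quiescence sum ran against each other, with Spearman's rho of -0.36 in 684 KO cells and -0.30 in 507 WT cells. These cells share a library and the fixed total of 2000 UMIs, and the coefficients are descriptions. The activation sum and the immediate early sum were hardly related (rho -0.04 in KO cells and -0.06 in WT cells), and the sum of Mt1 and Mt2 went with activation (0.33 in KO cells and 0.27 in WT cells) and against quiescence (-0.22 in KO cells and -0.23 in WT cells).

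**Figure D4:**
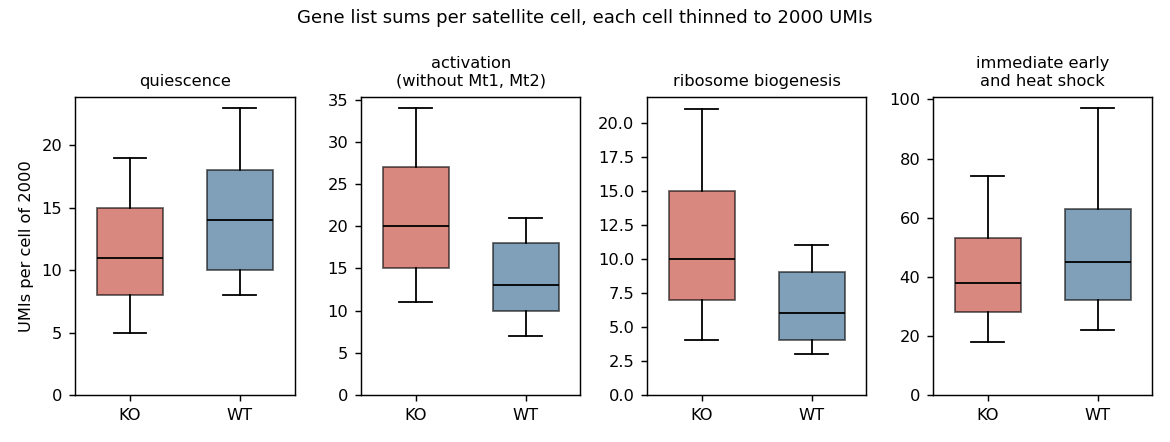
UMIs per satellite cell of 4 gene lists, each cell thinned to 2000 UMIs, in the KO library (red, left, 684 cells) and the WT library (blue, right, 507 cells). Boxes show the median and quartiles and whiskers the 10th and 90th percentiles over cells, which are not replicates. The medians are 11 and 14 for quiescence, 20 and 13 for activation, 10 and 6 for ribosome biogenesis and 38 and 45 for immediate early genes.

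Cells were then ranked by the activation sum and split into 3 groups, as even as ties allow, and the upper group was set against the lower. These are ranges of a continuous score and not cell types: 135 KO cells lay within 2 UMIs of the upper bound and 165 of the lower, and 129 and 180 WT cells. In the KO library the upper group held 256 cells with 24 or more UMIs and the lower 242 cells with 17 or fewer, and in the WT library they held 185 cells with 16 or more and 171 cells with 11 or fewer. Among genes outside the activation list with at least 50 CPM and 50 UMIs, 17.8% were lower in the upper group by 1.5-fold or more in the KO library (620 of 3482) and 14.5% in the WT library (371 of 2561), and 12.7% and 7.46% were higher. Of the quiescence genes, 12 of 22 were lower in the KO library and 6 of 20 in the WT library, and 0 and 1 were at least 1.5-fold higher, with medians of -0.59 and -0.46.

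Hes1 had a log2 ratio of upper over lower group of -0.97 in KO cells and -0.96 in WT cells, and Tenm4 -1.03 in KO cells and -0.71 in WT cells. The forkhead factors Foxo1 and Foxo3 hold cells at rest. Foxo1 had -0.92 in KO cells and -1.42 in WT cells, and Foxo3 -1.22 in KO cells and -0.83 in WT cells. Of the genes of the marker rule, given as a description, Pax7 was lower in the upper group (-0.61 in KO cells and -0.54 in WT cells), whereas Myf5 was near level, with intervals that include 0 (0.31, -0.06 to 0.69, in KO cells and 0.13, -0.26 to 0.53, in WT cells). Calcr, whose UMIs the marker rule used and which is in no other list, had 91.8 CPM in the upper group of KO cells and 285 CPM in their lower group (log2 -1.62, -2.14 to -1.15). In WT cells it had 219 CPM in the upper group and 608 CPM in the lower group (log2 -1.47, -1.86 to -1.10). The quiescence genes Rbpj and Bmpr1a were near level in both libraries. Peg3, an imprinted gene of stem cells, was lower in the upper group of KO cells (-0.76) and near level in WT cells (-0.17), and whether the libraries differ in this was not tested.

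Across all genes, those with large differences in both libraries included Txnip, a redox and glucose uptake regulator, lower in the upper group (log2 -2.09 in KO cells and -2.09 in WT cells), and Fos, lower too (-1.56 in KO cells and -1.48 in WT cells). Higher in the upper group were the nucleolar GTPase genes Gtpbp4 (1.21 in KO cells and 1.09 in WT cells) and Gnl3 (0.98 in KO cells and 1.24 in WT cells), the chemokine Cxcl1 (1.08 in KO cells and 1.05 in WT cells) and Erfe (0.83 in KO cells and 1.01 in WT cells). The ranking sum itself holds nucleolar genes such as Ncl and Nop56, so nothing is read from Gtpbp4 and Gnl3. Of 29 immediate early genes compared in KO cells 6 were lower and 1 higher, and of 26 in WT cells 3 were lower and 1 higher. The lower counts were near the shares of all genes (17.8% in the KO library and 14.5% in the WT library). The higher counts were below theirs (12.7% in the KO library and 7.46% in the WT library). Identity genes were mixed. In KO cells 4 of 18 were higher and 3 lower, beside 12.7% and 17.8% of all genes. In WT cells 3 of 15 were higher and 2 lower, beside 7.46% and 14.5%. Among them, the surface markers Sdc4 and Vcam1 were higher in the upper group, at 0.82 and 0.68 in KO cells and 0.53 and 0.41 in WT cells. Fgfr4 and Megf10, a phagocytic receptor of satellite cells, were lower, at -1.15 and -1.27 in KO cells and -0.79 and -0.72 in WT cells. Igf1r was also lower in the upper group (-0.80 in KO cells and -0.34 in WT cells). Of the IGF axis genes, 8 of 14 were lower and 0 higher in KO cells and 4 of 12 lower and 1 higher in WT cells. Of all genes, 17.8% (KO) and 14.5% (WT) were lower. The IGF axis genes that were lower in both libraries include Foxo1 and Foxo3, which are counted as quiescence genes as well.

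Depth moved with this ranking, and RNA of muscle fibres differed between the groups through few cells. Before thinning, the upper group had a median of 8372.5 UMIs in KO cells and 3717 in WT cells, and the lower group 7060 and 3549. Myofibre markers were lower in the upper group for 5 of 10 genes compared in KO cells and 7 of 7 in WT cells, beside 17.8% and 14.5% of all genes. Cells of 10 or more myofibre UMIs numbered 6 in the upper and 8 in the lower group of KO cells, and 3 and 2 in WT cells. Without them, only 1 myofibre marker in KO cells (log2 0.22) and 0 in WT cells reached the floors. Then 11 of 22 quiescence genes were lower in the upper group in the KO library and 6 of 20 in the WT library. The share of all genes was not computed without these cells, so these counts have none to be set beside.

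**Figure D5:**
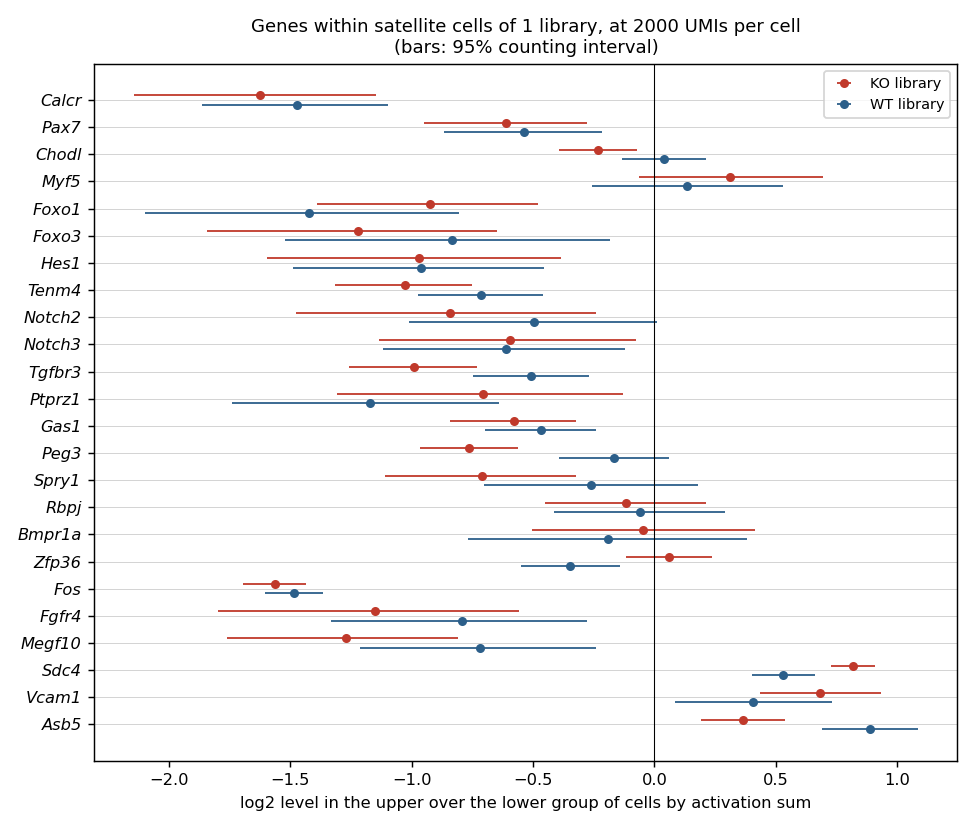
Log2 ratio of the level in the upper over the lower group of satellite cells ranked by their activation sum, within the KO library (red, upper) and the WT library (blue, lower), at 2000 UMIs per cell with 95% counting intervals. Calcr, Foxo1, Hes1, Tenm4 and Fos lie below 0 in both libraries and Sdc4, Vcam1 and Asb5 above 0, while Myf5 and Rbpj lie near 0.

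Cells were also split by Myod1 alone. Cells with a Myod1 UMI (129 of the KO library and 73 of the WT library) were compared with those without (555 and 434). Of 3789 genes in the KO library and 3449 in the WT library, 5.09% (KO) and 7.1% (WT) were higher in cells with Myod1 by 1.5-fold or more and 8.76% (KO) and 12.4% (WT) lower, and of the quiescence genes 4 of 23 were lower and 0 higher in the KO library and 2 of 23 lower and 2 higher in the WT library, with medians of -0.36 in KO cells and -0.05 in WT cells. The activation list without Myod1 had medians of 0.11 in KO cells and 0.16 in WT cells. Of 22 genes, 1 was at least 1.5-fold higher in each library, Fosl1 in KO cells and Hspe1 in WT cells (0.60, -0.08 to 1.23). In KO cells 0 were as much lower, and in WT cells 1 was, Met (-0.81, -1.86 to 0.08). So few members passed 1.5-fold in either direction. Myofibre markers were lower in cells with Myod1 for 10 of 10 genes compared in KO cells and 8 of 8 in WT cells. As given above, 1 cell held 19.1% of the UMIs of these markers in the KO library and 54.7% in the WT library.

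The genes that varied most between single cells, by the variance over the mean at 2000 UMIs (median 1.23 in KO cells and 1.22 in WT cells over 2928 genes), included contractile genes, Fos and a few secreted or receptor genes. Contractile genes of the muscle fibre, Acta1 and Tnnt3 among them, gave values such as 23.2 in KO cells and 30.3 in WT cells for Acta1. Fos, an immediate early gene, had 29.7 in KO cells and 22.2 in WT cells. Gal, which encodes the neuropeptide galanin, had 12.3 in KO cells and 13.2 in WT cells, with up to 44 UMIs in 1 KO cell and 65 in 1 WT cell. Cxcl1, a chemokine, had 9.76 in KO cells and 11.8 in WT cells, with up to 39 UMIs in 1 KO cell and 49 in 1 WT cell. Calcr, too, was uneven, with a ratio of 5.89 in KO cells and 9.30 in WT cells and up to 29 UMIs in 1 KO cell and 46 in 1 WT cell.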

How the data were processed

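The authors deposited raw counts, that is UMI counts per gene and barcode made with Cell Ranger (9.0.0 and build mm10 per the submitters' processing notes, 9.0.0 for KO and 8.0.0 for WT per the file headers), with no normalisation. Libraries used the 10x Genomics GEM-X 3' kit per the labels' protocols, and settings on introns and strand are not given in the sources used here. No file coordinates are given. 1 gene is not reported here.

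Satellite cells, their members and all gene lists were chosen with earlier results of these data known. For each library the counts of its satellite cells were added up and expressed as CPM. The FAP, endothelial and mural comparison cells needed 10 or more Pdgfra, Col1a1 and Dcn UMIs with Pdgfra detected, or 3 or more UMIs with 2 genes detected of Pecam1, Cdh5 and Kdr, or of Rgs5, Kcnj8 and Abcc9, all with the 4 satellite markers and Ptprc at 0, and Pecam1 at 0 in FAP and mural cells. They numbered 674, 7441 and 1416 in KO and 1135, 2880 and 816 in WT. Levels have exact Poisson, shares Clopper-Pearson and ratios conditional binomial intervals, at 95%; ratio intervals were computed without the added 1 CPM. Thinning drew UMIs without replacement with fixed seeds.

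Genes named were drawn by rule from the markers, per list the members farthest from level (6 in 7 main lists, 4 in the others) and in the main lists the 6 highest, the 12 highest and 12 lowest ratios, the 15 with the largest excess over other barcodes, and the 10 highest and 10 lowest of the Myod1 split, whose genes are not printed. Mitochondrial, ribosomal protein, haemoglobin and predicted genes were left out of the last 3 sets, and from the ratios and the Myod1 split also genes over 5 times higher in the other barcodes. Other list members are named to account for a count or as context, and the genes of the activation ranking were chosen after their values were seen. The code was tested on simulated data. Doublets were called with Scrublet through scanpy 1.11.5 (30 components) and kept in the main values: 681 of 19531 barcodes in KO (3.49%, expected 7.81%) and 95 of 11360 in WT (0.836%, expected 4.54%), 27 and 8 of them satellite cells. Python 3.11.15, numpy 2.4.6 and scipy 1.17.1 were used.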

Additional observations from a re-analysis of the deposited data

How the results depend on the processing

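No paired analysis was possible because each genotype has 1 library. Settings changed the filter, the marker rule, doublets, scaling, depth, weighting, floors, the added CPM and single cells: 13 of these were planned, and the other 4 were chosen after seeing the data. Of 2023 values of 119 named genes, 1860 stayed close to the value reported, 160 moved and 3, of genes past 2-fold, reversed, and 39 of 816 values of the 48 genes past 2-fold lost it. The 3 reversals past 2-fold were of Ttn: -1.49 without called doublets, -1.66 without the barcodes of highest doublet score and -0.13 without cells of 10 or more myofibre UMIs. Over genes of any size 27 values changed sign or came to 0. They included Neb (0.37, and -0.68, -0.71 and -0.43 under those same settings), Stmn1 (-0.86, but 0.23 without its top cell and 0.36 without the WT cell of 3 or more Mki67 and Top2a UMIs), Akt1 (0.55, but -0.21 after thinning) and Myf5 (-0.33, but 0.23 with the rule at 2000 UMIs).

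The share of satellite cells in the KO and WT libraries was 4.998 and 7.09% under a strict filter (1000 genes, 2000 UMIs, 5% mitochondrial), 4.84 and 7.25% with 2 marker UMIs of 1 gene or more, 3.61 and 4.86% with 5 marker UMIs, 3.37 and 5.03% with Dcn at 0, and 2.59% in KO with the rule applied at 2000 UMIs. Genes 2-fold higher and lower numbered 105 and 71 after thinning, 103 and 85 with floors of 50 CPM and 200 UMIs, 743 and 1156 with no floor, and 44 and 40 of 2733 with the rule at 2000 UMIs. That last setting gave medians of -0.13 for quiescence, 0.38 for activation, -0.10 for immediate early and 0.78 for ribosome biogenesis genes. It gave Myod1 shares of 15.2% in KO and 11.3% in WT. Those shares were 10.4 and 7.66% at 1000 UMIs, 22.5% in KO at 3000 UMIs, and 34.8 and 18.4% with no thinning. The 4 list medians kept their sign under every setting run. The cause of these shifts was not tested. Depth limits low genes most, since WT satellite cells held fewer UMIs, and the doublet calls fell short of the expected rates.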
